A study of Mus musculus with 6 samples.

Results

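A group of 6 little-studied mouse microRNA (miRNA) entries, mmu-miR-3077*, mmu-miR-1934*, mmu-miR-5107, mmu-miR-5130, mmu-miR-714 and mmu-miR-1940 (mmu, for mouse, is left out from here on), was followed across arrays of vascular smooth muscle cells cultured with and without TNF-α. These are 6 of the 1078 reporters on each array and were matched by reporter name. They were picked from among the largest falls between the same 6 arrays, so their levels and changes are given here as a description, with no test. The selection set no threshold. A signal filter for testing was passed by 642 reporters, and it also lets in reporters near background. Counted from the lowest change among the 642, 5 of the 6 hold ranks 3 (miR-1934*), 4 (miR-3077*), 5 (miR-5107), 12 (miR-714) and 13 (miR-5130). miR-1940 was below background with TNF-α, so it has only a bound and no rank. The larger falls of miR-3102-5p.2 and miR-494 are outside the group. miRNA numbers follow the order in which entries were registered, and 5 of the 6 have late numbers; miR-714 has an early one, so the name "late-annotated" does not hold for it by number.

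The cells were vascular smooth muscle cells, the contractile cells of the artery wall, taken from abdominal aortas of 8-week-old mice of the C57BL/6 strain. Both groups were cultured and passaged several times before harvest: 3 untreated control cultures and 3 cultures given the inflammatory cytokine TNF-α, grown and harvested independently. The labels give neither the TNF-α dose and duration nor the number of mice behind a culture. The comparison asks which miRNAs differ between treated and untreated cells.

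A miRNA is cut from the stem of a hairpin precursor, and either arm of the stem can give a mature strand of roughly the same length. The mature strand guides an Argonaute protein to mRNAs, chiefly through its seed, the bases near its 5′ end, and lowers their translation or stability. In the older naming used on these arrays an asterisk marks the arm that was found less often when the hairpin was first described. TNF-α acts through cell surface receptors that activate NF-kB, and in arteries it is known to shift smooth muscle cells toward an inflammatory state. No role of the 6 entries in smooth muscle is given here as background.

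RefSeq on GRCm38.p6 gave hairpins for 3 of the 6. They are shown here because the seed and the base composition are features on which the selection did not draw. RefSeq names arms by their side of the hairpin, 5p or 3p, and does not say which of them the older asterisk named, so both arms are given for miR-3077 and miR-1934. Each sequence is written 5′ to 3′ with the seed, bases 2 to 8, in capitals.
miR-3077-5p, chr14:57798424-57798448, plus strand: cUGCGGACgggugggcgggcaggcc
miR-3077-3p, chr14:57798466-57798487, plus strand: cUGACUCCcugcuucuccgcag
miR-1934-5p, chr11:69663055-69663077, plus strand: uCUGGUCCccugcuucguccucu
miR-1934-3p, chr11:69663092-69663113, plus strand: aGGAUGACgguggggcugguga
miR-5130, chr14:102982608-102982631, minus strand: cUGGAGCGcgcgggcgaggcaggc
miR-5107, miR-714 and miR-1940 are named only.

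No seed was shared among these 5 sequences. Across the 1679 mature mouse sequences in the table, 1 other miRNA had the seed of miR-3077-3p, namely miR-7661-3p, and none had the seed of the other 4. G made up 56.0% of miR-3077-5p, 54.5% of miR-1934-3p and 54.2% of miR-5130, against a median of 26.9% over all 1679; these shares exceed those of 97.9%, 97.0% and 96.7% of the sequences. The opposite arms held less G, at 18.2% for miR-3077-3p and 17.4% for miR-1934-5p. The run GGG, searched in the RNA as written, occurred in the same 3 G-rich sequences and in neither opposite arm; 30.6% of all mature sequences hold it. Reporters above background may differ from that whole table: over the 54 with a sequence under their exact array name, members left out, the median G share was 34.8% and 40.7% held GGG. The G+C share was 84.0% in miR-3077-5p and 83.3% in miR-5130, above 99.3% of sequences in both cases. Whether G content moves with the change over all reporters was not tested, because those 54 are only 26.5% of the 204 other reporters clear of background.

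The 3 hairpins lie in different settings. The hairpin of miR-3077 (chr14:57798424-57798487) starts 235 bases inside Sap18, which runs along the same strand and encodes a partner of the SIN3 histone deacetylase complex and of splicing-dependent complexes. The hairpin of miR-5130 (chr14:102982549-102982632) starts 5 bases inside Kctd12, also on the same strand, at the very beginning of this gene for an auxiliary subunit of GABA-B receptors. The hairpin of miR-1934 (chr11:69663043-69663125) overlaps no other annotated gene; it lies 394 bases from Mpdu1, a gene for a protein of mannose donor use, and 1088 bases from Cd68, which encodes a macrophage glycoprotein. The gene table used here gives spans and start sites, without exons.

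Each value is the median density of a reporter on a scanned Cy5 array, a brightness on a linear scale with background not subtracted. The median over all reporters ran from 74.7 to 82.7 in controls and from 85.9 to 97.2 with TNF-α. The background limit, set for each array 3 SD over its commonest density (SD of the values under it), ran from 88.6 to 101.1 in controls and from 115.6 to 127.3 with TNF-α, and 306 to 339 against 241 to 256 reporters exceeded it. The limit therefore separated the groups, its part in the falls was not tested, and a technical shift of one set of arrays cannot be told apart from the treatment. All 9 markers of smooth muscle or fibroblast-like cells exceeded the limit on every array, with a summed density of 95128 to 106368 in controls and 103201 to 110246 with TNF-α. Of the other markers, miR-126-3p of endothelium and miR-206 of striated muscle exceeded it on every array, and none of 5 blood cell, 1 liver or 2 neuronal markers did. On no array did 4 of the 5 blood cell markers, or any liver or neuronal marker, exceed the limit. The sums for these 3 lists are thus mostly readings not clear of background. Summed densities were 361 to 392 in controls and 384 to 445 with TNF-α for the blood cell markers, 185 to 219 and 193 to 233 for 2 endothelial markers, 83.0 to 93.5 and 79.8 to 89.2 for the liver marker, 150 to 161 and 148 to 161 for the neuronal markers, and 489 to 526 and 435 to 508 for 4 striated muscle markers. Within that last sum miR-206 was lower on every TNF-α array, with densities of 277, 256 and 237 in controls and 199, 198 and 168 with TNF-α; its part in the falls was not tested.

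miR-3077*, one arm of the hairpin inside Sap18, had densities of 1209, 1238 and 1063 on control arrays 1, 2 and 3. With TNF-α they were 672.1, 672.0 and 469.6. The lowest control array stood 1.58 times above the highest TNF-α array, the widest separation among the 6 entries. The mean fell from 1170.3 ± 93.7 to 605 ± 117 (SD, n = 3 per group), to 51.7% of control. After correction for background and quantile normalization the change was -0.73 ± 0.11 (SE) on the log2 scale, or 1.66-fold lower. The 9 pairings of a TNF-α array with a control array gave differences from -0.99 to -0.47.

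miR-1934*, an arm of the hairpin near Cd68, had control densities of 455, 428 and 387. The TNF-α densities were 303, 186 and 241. Every TNF-α array was below every control array, and TNF-α replicate 2 was the lowest. The means were 423 ± 34.6 and 243 ± 58.4, and the change was -0.75 ± 0.18 on the log2 scale, 1.69-fold lower, with pairwise differences of -1.28 to -0.35. The spread among TNF-α arrays was wide here, with an SD of 0.41 on the log2 scale against 0.06 in controls. Without TNF-α replicate 2 the change was -0.53, and without TNF-α replicate 1 it was -0.95.

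The partner arms of these hairpins were not above background. miR-3077 had control densities of 68.5, 84.4 and 64.2 and TNF-α densities of 115, 79.1 and 64.8, below the limit of all 6 arrays, and had too little signal to be tested. miR-1934 had 92.1, 98.1 and 81.5 in controls and 110.0, 75.3 and 100.9 with TNF-α, again below the limit on all 6 arrays. Its groups overlapped, and its change of -0.14 ± 0.15 did not pass limma's test (adjusted p = 0.538); it was 0.01 without normalization and 0.05 without TNF-α replicate 2. In contrast miR-3077* stood at 12 to 13 times the limit in controls and at 4.06 to 5.42 times it with TNF-α. The corresponding ranges for miR-1934* were 4.23 to 4.89 and 1.46 to 2.44. In both hairpins, then, the arm marked as the less frequent was the one read above background, and a fall can be described for that arm alone. A large fall needs signal in controls, so the selection itself favoured reporters above background. Nothing is read from which arm cleared it. Brightness was not calibrated between reporters, so the amounts of the arms cannot be compared. The difference in change between the arms was not tested.

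**Figure D1:**
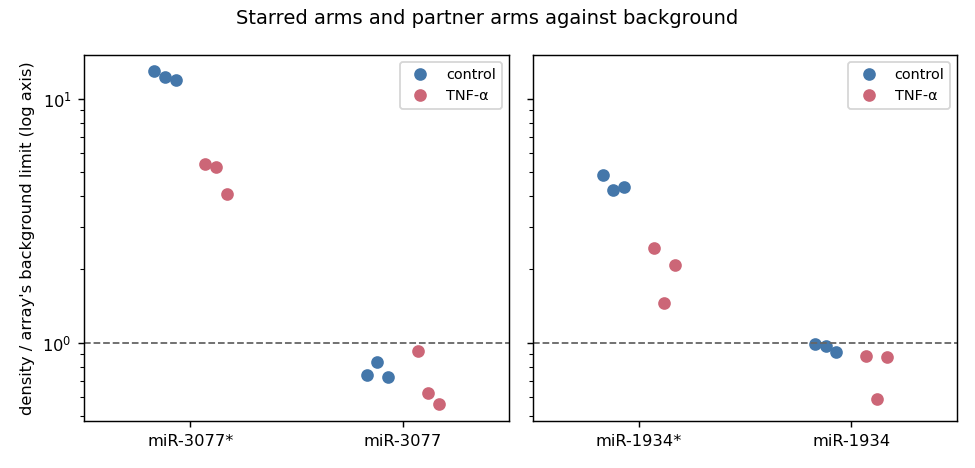
Density of the starred and unstarred arms of the miR-3077 and miR-1934 hairpins on each array, divided by the background limit of that array (log axis; dashed line at the limit; blue points, 3 control arrays; red points, 3 TNF-α arrays). Both starred arms lie above the limit on all 6 arrays and both partner arms below it.

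miR-5130, whose hairpin opens Kctd12, had control densities of 1337, 1278 and 995. The TNF-α densities were 757.5, 696 and 568. The groups did not overlap, with the lowest control array 1.31 times the highest TNF-α array. The mean fell from 1203 ± 183 to 674 ± 96.8, to 56.0% of control. The normalized change was -0.58 ± 0.10, or 1.5-fold lower, and pairwise differences ran from -0.82 to -0.38.

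miR-5107 had control densities of 13625, 11607 and 8435.5, and TNF-α densities of 8419, 7816 and 5581. Control replicate 3 was brighter than TNF-α replicate 1 by only 16.6 units, so the groups touched on the scanner scale although they did not overlap. The means were 11223 ± 2616 and 7272 ± 1495. After quantile normalization the arrays stood further apart, at 13.73, 13.32 and 13.32 in controls and 12.99, 12.82 and 12.49 with TNF-α on the log2 scale. The change was -0.69 ± 0.15, 1.61-fold lower, with pairwise differences of -1.23 to -0.33.

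miR-714 had control densities of 301, 280.3 and 197, and TNF-α densities of 186, 169 and 162. Control replicate 3 was again the nearest to the TNF-α arrays, at 1.06 times the highest of them. The means were 259.6 ± 54.9 and 172 ± 12.2, and the change was -0.59 ± 0.09, 1.51-fold lower, with pairwise differences of -0.78 to -0.36. The TNF-α densities lay only 1.32 to 1.5 times above the background limit, against 2.23 to 3.23 times in controls. The size of the fall therefore moved with the constant added before the logarithm, from -0.75 with an offset of 8 to -0.43 with the largest offset tried.

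miR-1940 lay nearest to background. Its control densities were 104, 127 and 111.5, and its TNF-α densities 83.2, 110.8 and 63.8. TNF-α replicate 2 was above control replicate 1, so the groups overlapped on the scanner scale. All 3 control arrays exceeded the background limit, at 1.12 to 1.26 times it, and no TNF-α array did, at 0.552 to 0.870 times it. The normalized change was -0.64 ± 0.15, but for a reporter under the limit in a whole group only a bound holds, here at least 1.03-fold lower. For the bound, each TNF-α value was raised, where lower, to the dimmest reading that cleared the limit on its array. The estimate ran from -1.26 with an offset of 8 to -0.35 with the largest.

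**Figure D2:**
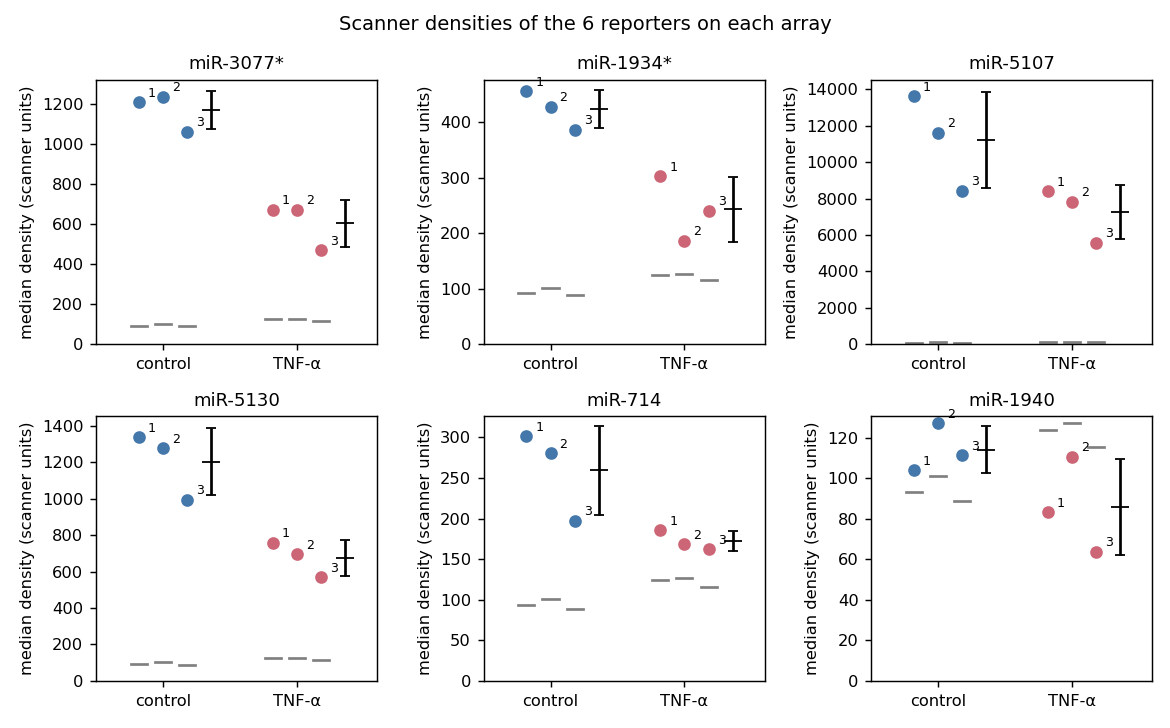
Median scanner density (linear axis from 0) of each of the 6 entries on 3 control arrays (blue) and 3 TNF-α arrays (red), with replicate numbers; black bars give the group mean and SD, and grey dashes the background limit of each array. Densities are lower with TNF-α in all 9 pairings for 5 entries and in 8 of 9 for miR-1940, whose TNF-α points lie under the limit.

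On the scanner scale 5 of the 6 entries, all except miR-1940, had every TNF-α array below every control array. Over the 209 reporters above the limit on all arrays, which include those 5, the same held for 17.2%. After quantile normalization the groups did not overlap for any of the 6, and this held for 19.6% of the 642 tested reporters. Many of the 642 are near background. Over the 293 reporters above the limit on at least 3 arrays the share was 28.3%. Since the selection used these arrays, nothing is read from these shares. Within groups the arrays were not alike. Control replicate 3 was the lowest control array for 5 of the 6 entries and TNF-α replicate 3 the lowest TNF-α array for 5, and these 2 arrays also had the lowest median density of their groups. After quantile normalization TNF-α replicate 3 was the lowest TNF-α array for 4. Control replicates 1, 2 and 3 were then the lowest control array for 2 entries each. In that count miR-5107, at 13.32 on both control replicates 2 and 3, was placed with replicate 2.

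The median change of the 5 entries clear of background was -0.69, and -0.67 with the estimate for miR-1940, beside 0.01 over all 642 tested reporters. Over the 293 reporters above the limit on at least 3 arrays the median was -0.03. The 5 changes ran from -0.75 to -0.58, with standard errors of 0.09 to 0.18, and no difference between the entries was tested.

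**Figure D3:**
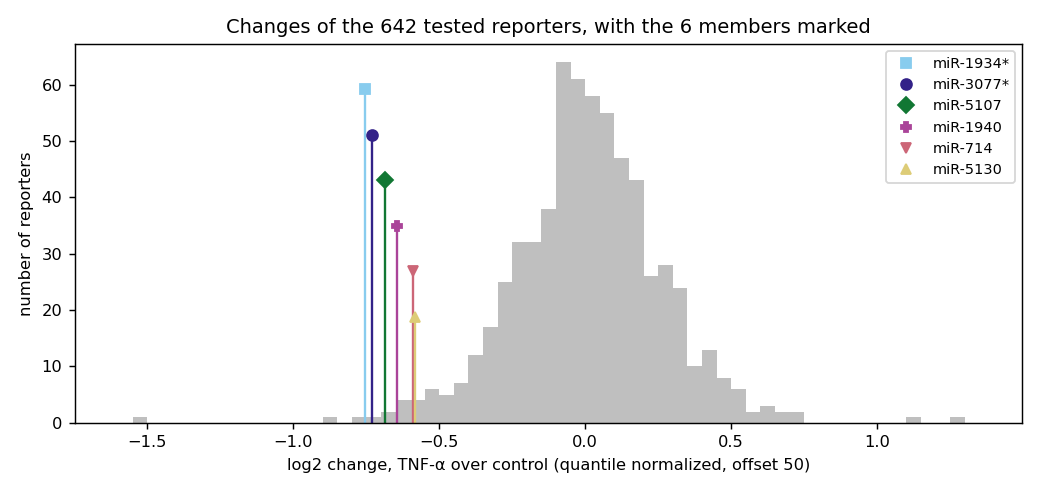
Distribution of the log2 change, TNF-α over control, for the 642 tested reporters (grey bars), with the 6 entries marked by coloured lines whose height has no meaning. The 6 lie between -0.75 and -0.58, the line of miR-1940 being an estimate below background, and the reporters further left are miR-494 at -0.90 and miR-3102-5p.2 at -1.51.

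The falls were seen under each scaling of the arrays, and their size depended on it. Without normalization between arrays the changes were -0.98 for miR-3077*, -0.84 for miR-1934*, -0.84 for miR-5130, -0.62 for miR-5107, -0.60 for miR-714 and -0.49 for miR-1940, while the median of all tested reporters was 0.14. Relative to that median the falls ranged from -1.12 for miR-3077* to -0.63 for miR-1940, whose values here are estimates below background. Scaling to the median of detected reporters gave -1.05 for miR-3077* and -0.91 for both miR-1934* and miR-5130. Cyclic loess, which removes trends with brightness, gave -0.83 to -0.58. With both the unnormalized and the median-scaled values the groups of miR-1940 overlapped, by 0.07 and 0.02 on the log2 scale.

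The authors' processed table, in which a background had already been removed, after 32 was added to each value before the logarithm, gave falls of -1.10 for miR-3077*, -1.03 for miR-1934*, -0.90 for miR-5130, -0.86 for miR-714 and -0.67 for miR-5107. Its median over tested reporters was -0.12, so relative to it the falls ranged from -0.97 for miR-3077* to -0.55 for miR-5107. In that table miR-1940 was listed at 0.01, the lowest value in the table, on TNF-α arrays 1 and 3, so no change is given for it. Subtracting the background peak of each array in place of the model-based correction gave -0.83 to -0.60 for the 5 entries that passed the filter; the model-based correction also removes background. miR-5107, which lay at least 48.3 times above the limit on every array, changed by -0.69 with that correction and by -0.69 and -0.68 with the smallest and largest offsets.

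**Figure D4:**
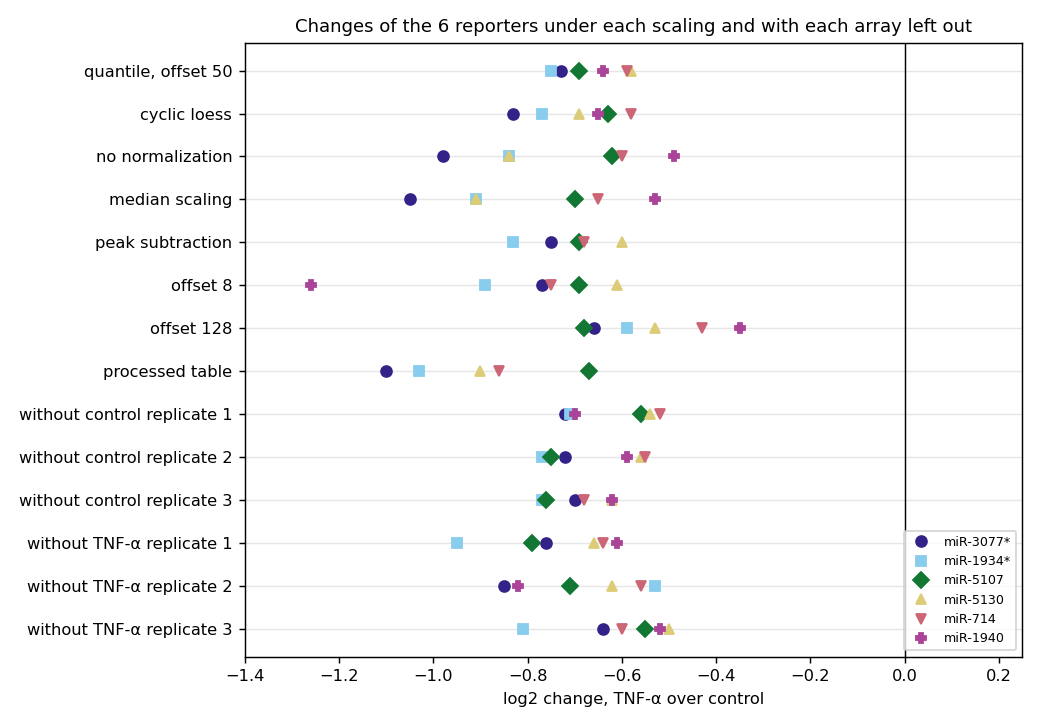
Log2 change, TNF-α over control, of the 6 entries (coloured symbols) with quantile normalization and an offset of 50, under 7 other scalings, corrections or sources, and with each array left out in turn; miR-1940 has no point where it did not pass the filter or from the processed table, and its other points are estimates below background. All points lie below 0, from -1.26 to -0.35, and miR-1940 has the widest range.

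Leaving out 1 array at a time left each of the 6 below 0. Because the normalized groups did not overlap, this sign was fixed in advance, except for effects of normalizing anew. Only the sizes of the changes are informative, and only for the entries clear of background. Those of miR-1940 are estimates below background. The changes ranged from -0.85 to -0.64 for miR-3077*, from -0.66 to -0.50 for miR-5130, from -0.68 to -0.52 for miR-714, from -0.79 to -0.55 for miR-5107, from -0.82 to -0.52 for miR-1940 and from -0.95 to -0.53 for miR-1934*. The median over the 6 entries was smallest, at -0.58, without TNF-α replicate 3.

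The spread within a reporter on an array, which the selection did not use, came from the deposited standard deviation of the density. Divided by the density it was 4.41% to 9.01% for miR-3077*, 5.04% to 8.86% for miR-5130 and 2.43% to 11.6% for miR-5107. It was 5.24% to 13.3% for miR-1934*, 9.73% to 16.0% for miR-714 and 11.2% to 17.2% for miR-1940. The median over the 209 reporters above the limit on all arrays ran per array from 7.64% to 8.13% in controls and from 8.47% to 8.97% with TNF-α. miR-714 and miR-1940, the dimmest of the 6 entries, each exceeded that median on all 6 arrays. miR-5107 differed between the groups in this measure, at 3.45% on average in controls and 10.5% with TNF-α, and the 3 values of each group did not overlap. That was not particular to it: the groups were also apart for miR-494, at 6.57% and 15.5% on average, and for miR-3102-5p.2, at 5.83% and 10.7%.

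The reporters whose normalized values ran most like the mean of the 6 over the 6 arrays were miR-3110* (Pearson r = 0.992), miR-3102-5p.2 (0.990), miR-494 (0.985), miR-1966 (0.983) and miR-3960 (0.981). This is a measure of likeness among 204 reporters above the limit on all arrays, of which 23 had an r over 0.9, and much of it is the difference between the groups that they share with the 6. miR-3110* had control densities of 306, 290.2 and 259 and TNF-α densities of 223, 215 and 186, so it too was lower on every TNF-α array. miR-1966, at 617 ± 66.1 and 505 ± 34.4, had a change of -0.19 ± 0.06, which did not pass limma's test (adjusted p = 0.0614). That outcome held in 11 of 19 alternatives, and in the others miR-1966 was called lower. miR-3960, made from a cluster with miR-2861 that is linked to bone-forming cells, was at 21458 ± 2758 and 16201 ± 1112. Its change of -0.28 ± 0.07 was called lower, and this call was kept in 13 of 19 alternatives.

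Other late-numbered reporters were called in both directions. Taking numbers from miR-1892 upward and leaving the members out, 261 such reporters were on the array and 172 passed the filter for testing. Of these, 19 were lower and 17 higher with TNF-α in limma's test at an adjusted p under 0.05, or 11% and 9.88%. Of all 642 tested reporters, the 6 members included, 9.81% were lower (63) and 12.9% higher (83), 22.7% in all. The median change of the 172 was -0.02. With only reporters above the limit on at least 3 arrays tested, 68 were late-numbered, 18 of them lower and 10 higher. All 293 tested that way split into 58 lower and 52 higher. The split depended on the scaling: 10 lower and 38 higher without normalization, 18 and 37 with median scaling and 26 and 8 in the processed table, when all tested reporters split 41 and 163, 69 and 158, and 81 and 39. Leaving out control replicate 1, 2 or 3 gave 12, 13 or 16 late-numbered calls, and leaving out TNF-α replicate 1, 2 or 3 gave 20, 17 or 19, in each case with fewer reporters tested. Among the 42 late-numbered reporters above the limit on all arrays 9 were lower (21.4%) and 8 higher (19%), and of 24 starred arms above the limit on all arrays, members left out, 6 were lower and 6 higher (25% each). Over all 209 reporters above the limit on all arrays 15.3% were lower and 18.7% higher, but these include 5 members, all called lower. Over the 162 earlier-numbered reporters among them, members left out, 11.1% were lower and 19.1% higher.

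Among late-numbered reporters above the limit on all arrays of at least one group, the largest called falls were miR-3102-5p.2 (-1.51 ± 0.11), miR-1892 (-0.47 ± 0.09), miR-3110* (-0.43 ± 0.07) and miR-2861 (-0.41 ± 0.07). All 4 were above the limit on every array and were lower in limma's test under each of 19 alternatives. miR-1892 went from 2252 ± 196 to 1522 ± 181 and miR-2861 from 4518 ± 538 to 3186 ± 212. Apart from miR-3102-5p.2, these estimates were smaller in size than those of the 6 entries, a difference that was not tested. The 6 were picked from among the largest falls and left out of this list, so nothing is read from it. The largest called rises by the same rule were miR-3084 (1.10 ± 0.11), miR-3473b (0.68 ± 0.18), miR-3473 (0.54 ± 0.10) and miR-5097 (0.52 ± 0.10). miR-3473 and miR-5097 exceeded the limit on all 3 TNF-α arrays and on 1 control array each. For miR-3473b the call ended when any control replicate was left out (0.62 to 0.72), and likewise with TNF-α replicate 1 (0.56) or replicate 3 (0.58) left out. The call also ended on all 6 arrays with an offset of 8 (0.73) and with the other variance model. It was kept in 12 of 19 alternatives.

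In these bulk RNA samples, a lower density cannot be divided into fewer cells with the miRNA and less of it per cell.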

How the data were processed

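Total RNA was tailed, tagged and stained with Cy5, per the labels' protocols, and read on 1-colour arrays. The authors deposited, per the file headers, a median density for every reporter with its standard deviation; these are linear intensities, and dim reporters sit well above 0, so background is still in them. They also deposited a processed intensity table, with a minimum of 0.01, whose scale and centring between arrays stay unknown; its medians were 10.4, 11.9 and 10.4 on control and 12.0, 11.9 and 8.39 on TNF-α arrays. The sources used here name no scanner or software.

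Densities were corrected with normexp, raised by an offset of 50, log2-transformed and quantile normalized in limma 3.58.1 (R 4.3.3). Fold changes are on this offset scale, which understates changes of dim reporters. Reporters whose corrected density reached 32 on at least 3 arrays were tested with limma's two-sided moderated test, Benjamini-Hochberg adjusted at 0.05 over all of them. SE are from that model. The members and lists were chosen with earlier results of these data known. Besides the members, the text names their partner arms, reporters with a member's seed, the 5 most alike profiles (highest Pearson r, above the limit on all arrays) and the 4 largest called falls and rises among late-numbered reporters above the limit on all arrays of a group. Alternatives were other scalings, offsets, filters, variance models and sources, a replicate block, and each array left out. Cultures were grown independently per the labels, and the number of arrays limits the precision. The labels describe TNF-α arrays 2 and 3 with the same replicate number; numbers were taken in the order of the titles.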

Additional observations from a re-analysis of the deposited data

How the results depend on the processing

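The 6 entries were below 0 under each of 19 alternatives in which they passed the filter (16 for miR-1940). The other filters, the other variance model and the replicate block leave a fitted change as it is, so its sign was fixed in advance there. With 1 array left out the sign was largely fixed as well. Only the other scalings, corrections, offsets and source could move it. The median of the 6 entries, -0.67, became -0.80 after median scaling and -0.71 to -0.58 with 1 array left out. From the processed table it was -0.92, but that median takes in miR-1940, which is at the lowest listed value on 2 TNF-α arrays. The changes of the other 5 in that table ran from -1.10 to -0.67. The cause of these shifts was not tested. The number whose groups did not overlap, 6, was 5 without normalization, with median scaling, and where miR-1940 failed the filter. It stayed at 6 with 1 array left out, which the lack of overlap over all arrays had largely fixed in advance. The 146 calls over all reporters became 227 with median scaling and 77 with a filter at 100 (189 reporters tested), and 70 to 91 with 1 array left out. The 36 late-numbered calls became 55 and 22 in the same 2 settings and 12 to 20 with 1 array left out. Same-numbered arrays of the groups did not deviate together (correlations of 0.04, 0.02 and 0.15 over tested reporters, and not each array was closest to its own number). With the replicate number as a block there were 103 calls, 21 of them late-numbered. The members' median was again -0.67, which the block cannot change when each replicate number occurs once per group. Dim reporters limit the rest: miR-1940 is below background with TNF-α and miR-714 little above it. Local background and slide blocks were not run, since the files used here give neither.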
